A study of Mus musculus with 77 samples.

Results

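The genes described here are 10 ductal keratins and surface or secreted markers of pancreatic duct cells: Krt7, Krt8, Krt18, Krt19, Spp1, Muc1, Mmp7, Cd44, Prom1 and Cldn4. They were chosen by name, and each has its own row among the 46078 gene identifiers of the deposited count table. All 10 had enough reads to be tested at 2 days and at 8 days. The genes were followed in mouse pancreatic ductal organoids, three-dimensional cultures of adult duct cells, infected with lentiviral vectors from which doxycycline switches on GFP alone, GFP with wild-type Neurogenin3 (WT Ngn3) or GFP with the phosphomutant 6S-A Ngn3, whose serine-proline sites carry alanine in place of serine. All cells were of C57BL/6 origin, and all 7 groups came from infected organoids. RNA was sequenced with a full-length protocol (Smart-seq2) from pools of 50 cells sorted by flow cytometry. At 2 days of induction the groups were GFP only, WT Ngn3 and 6S-A Ngn3. At 8 days they were WT Ngn3, 6S-A Ngn3 and a no-color control from the organoids of each protein. No GFP-only group of 8 days was analysed here, and how the no-color cells were gated is not given in the sources used here. Each group had 3 biological replicates of 1 to 6 pools, and all organoids were of passage 2 except replicate 3 at 8 days, which was of passage 5 in all 4 groups. The labels do not say whether the biological replicates came from separate animals, so p-values measure the spread between these samples.

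Keratins 7, 8, 18 and 19 are the intermediate filament proteins of simple epithelium. Filaments form from obligate partners, a basic type II keratin (Krt7 or Krt8) with an acidic type I keratin (Krt18 or Krt19), and Krt19 with Krt7 is the classical combination used to recognise pancreatic ducts, whereas endocrine islet cells carry mainly Krt8 and Krt18. The other genes encode proteins of the duct cell surface or its secretions: Muc1 is a transmembrane mucin of the apical membrane, Cldn4 a claudin of the tight junction, Prom1 (CD133) a pentaspan membrane protein of apical protrusions, Cd44 the receptor for hyaluronan, Spp1 the secreted phosphoprotein osteopontin and Mmp7 a secreted matrix metalloprotease. Ngn3 is a basic helix-loop-helix transcription factor that starts endocrine differentiation of duct progenitors in the embryo and binds E-boxes, the sequence CANNTG, together with a partner protein.

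Krt7, Krt8 and Krt18 lie in the keratin cluster of mouse chromosome 15, with 23697 bases between Krt8 and Krt18, and Krt19 lies on chromosome 11. The 4 promoters printed here belong to genes that changed with both proteins at 2 days, the first 3 downward and Prom1 upward. Each is the 250 bases before the RefSeq transcription start (GRCm38.p6), 5′ to 3′ on the gene's strand, with every E-box in capitals. They span chr3:89228806-89229055 (plus strand) for Muc1, chr15:102027966-102028215 (plus strand) for Krt18, chr5:134946935-134947184 (minus strand) for Cldn4 and chr5:44101737-44101986 (minus strand) for Prom1.
Muc1: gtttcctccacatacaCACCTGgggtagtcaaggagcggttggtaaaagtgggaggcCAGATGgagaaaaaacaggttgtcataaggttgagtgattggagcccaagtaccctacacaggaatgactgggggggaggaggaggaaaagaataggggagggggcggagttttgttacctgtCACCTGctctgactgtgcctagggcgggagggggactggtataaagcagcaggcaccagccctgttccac
Krt18: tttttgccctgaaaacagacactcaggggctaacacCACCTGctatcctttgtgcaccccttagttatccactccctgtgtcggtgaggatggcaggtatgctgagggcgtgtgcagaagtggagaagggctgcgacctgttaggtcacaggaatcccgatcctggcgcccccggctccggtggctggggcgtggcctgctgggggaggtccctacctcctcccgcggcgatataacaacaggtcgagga
Cldn4: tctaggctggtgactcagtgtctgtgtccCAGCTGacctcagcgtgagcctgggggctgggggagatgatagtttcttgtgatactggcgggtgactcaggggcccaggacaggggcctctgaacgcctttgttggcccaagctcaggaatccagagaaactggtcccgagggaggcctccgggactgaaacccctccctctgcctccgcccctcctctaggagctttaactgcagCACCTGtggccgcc
Prom1: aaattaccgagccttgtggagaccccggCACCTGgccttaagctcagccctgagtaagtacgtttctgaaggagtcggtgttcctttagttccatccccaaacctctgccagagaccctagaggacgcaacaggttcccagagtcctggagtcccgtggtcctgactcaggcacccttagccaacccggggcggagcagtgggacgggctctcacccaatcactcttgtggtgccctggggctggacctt

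The E-box CANNTG, which reads the same on both strands, occurred in 8 of the 9 promoters that were found in the table, all except that of Cd44, against 66.22% of 32817 promoters of this length. The form CACCTG, with its reverse complement CAGGTG, stood in 7 of the 9 against 17.22% of all promoters, and was counted separately only after the sequences had been read. In Muc1 it lay 70 and 234 bases before the start, in Krt18 214, in Cldn4 14 and in Prom1 222. The form CAGATG or CATCTG was present in Muc1 alone, 193 bases before the start, against 14.46% of all promoters. CACCTG or CAGGTG was thus found upstream of genes that fell (Krt18, Spp1, Muc1 and Cldn4), of the gene that rose (Prom1) and of Krt7 and Krt8, which did not pass the test at 2 days. A match describes only the letters of this window.

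Levels are given as CPM, counts per 1000000 reads on genes after TMM scaling within a time point, for each biological replicate after its pools had been summed. A replicate held 17757303 to 26627347 reads at 2 days and 2397470 to 17919627 at 8 days, where the shallowest was replicate 3 of the no-color control of WT organoids. Per kilobase of annotated exon, on a scale common to both time points, Spp1 was the most abundant of the 10 genes in GFP-only cells with 5310.9 ± 619 CPM per kb (SD, n = 3), followed by Krt18 with 2118 ± 13.7, and Prom1 was the lowest with 76.1 ± 13.1. The 10 genes took 1.23% to 4.37% of all gene reads of a replicate. The duct markers Krt19, Krt7, Spp1 and Sox9 were well represented in every replicate of all 7 groups, whereas another marker of ducts, the chloride channel gene Cftr, stayed at 14.3 CPM or less. Neurog3, the gene of the induced protein, was at 0.0770 CPM or less in GFP-only cells. It was at 95.5 to 220.0 in WT and at 107 to 212 in 6S-A cells at 2 days, and at 6.69 to 43.9 and 9.5 to 14.3 at 8 days. Single pools of no-color cells held 0.922 CPM or less (WT organoids) and 1.21 or less (6S-A organoids) of Neurog3.

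**Figure D1:**
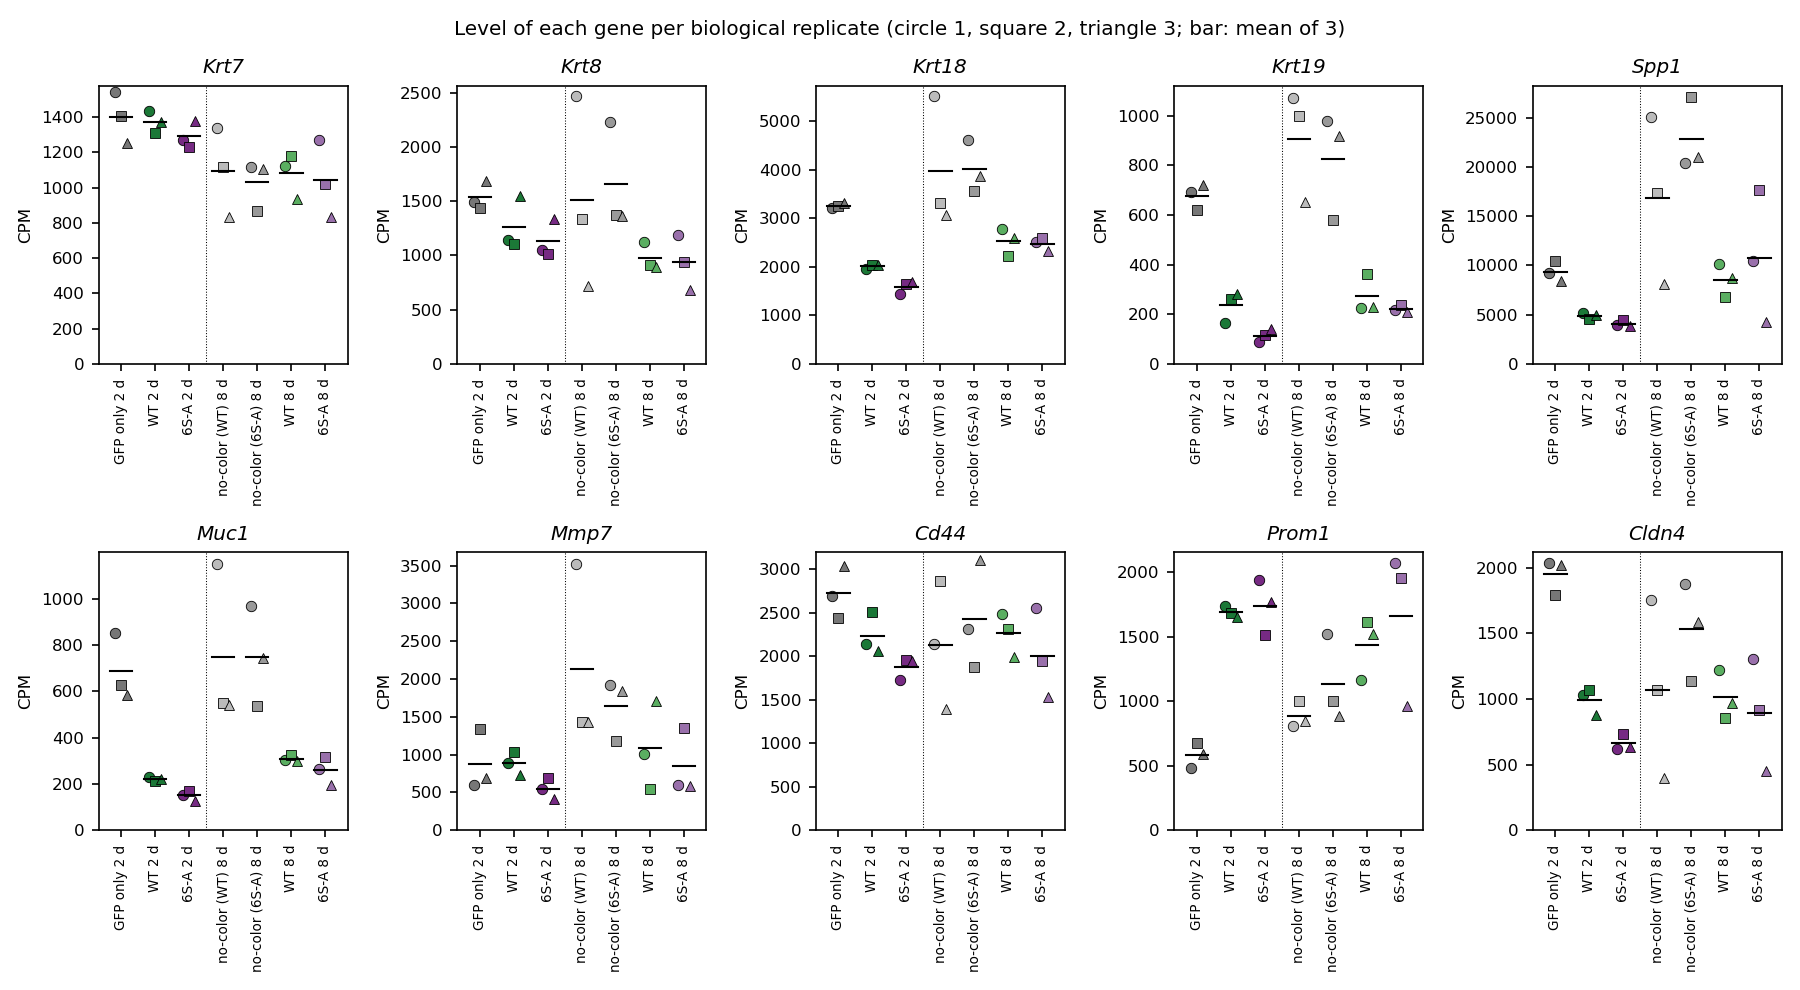
Level of each of the 10 genes in CPM (vertical axis) in each biological replicate of the 7 groups. Points are replicates (circle, square and triangle for 1, 2 and 3), bars are means, and the dotted line parts the time points, which were scaled separately. At 2 days Krt19, Muc1, Krt18 and Cldn4 step down from GFP only to WT and 6S-A Ngn3, Prom1 steps up, and Krt7 has group means of 1292 to 1400.0 CPM.

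At 2 days, 5 of the 10 genes fell and 1 rose in WT Ngn3 cells compared with GFP only, by edgeR's quasi-likelihood test at an adjusted p under 0.05, where 11.8% of all genes tested were called in either direction (6.56% higher and 5.23% lower). In 6S-A Ngn3 cells 6 fell and the same gene, Prom1, rose, where 18.1% of all genes were called (9.43% higher and 8.62% lower). Both comparisons use the same GFP-only samples. The median log2 change over the 10 genes was -0.49 in WT and -0.85 in 6S-A cells, and over all genes it was 0.01 and 0.02. Counts are relative to all gene reads of a pool, so fewer cells of a type in a pool and less RNA of a gene per cell cannot be told apart.

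Among the acidic keratins, Krt19 showed the larger fall. GFP-only replicates 1 to 3 held 693, 620.5 and 720.0 CPM of Krt19, WT replicates 166, 259.8 and 281, and 6S-A replicates 87.7, 114 and 139. The 3 groups did not overlap, and the highest Ngn3 replicate was far below the lowest GFP-only replicate. Krt19 was 0.35 times the GFP-only level in WT cells (log2 change -1.53, SE 0.20, adjusted p = 0.000195) and 0.17 times in 6S-A cells (log2 change -2.58, SE 0.20, adjusted p = 2.03e-06). Krt18, the more abundant acidic keratin, was at 3208, 3251 and 3305 CPM in GFP-only, 1959, 2037 and 2032 in WT and 1432, 1636 and 1679 in 6S-A replicates. Again no group overlapped another, and the replicates within each group lay close together. Krt18 fell to 0.62 times in WT (log2 change -0.70, SE 0.10, adjusted p = 0.000353) and 0.49 times in 6S-A cells (log2 change -1.04, SE 0.10, adjusted p = 7.38e-06).

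The basic keratins moved less. Krt8, the usual partner of Krt18, was at 1492, 1434 and 1684 CPM in GFP-only, 1143, 1102 and 1548 in WT and 1054, 1011 and 1335 in 6S-A replicates. Every 6S-A replicate lay below every GFP-only replicate, while WT replicate 3 lay between GFP-only replicates, and replicate 3 was the highest of each group. The log2 change of Krt8 was -0.28 (95% interval -0.60 to 0.04, adjusted p = 0.286) in WT and -0.44 (-0.76 to -0.12, adjusted p = 0.0551) in 6S-A cells, so neither passed edgeR's test. In 6S-A cells Krt8 lay close to the threshold and was called by DESeq2 (adjusted p = 0.0430), with size factors from scran (adjusted p = 0.0455) and without a filter on low counts (adjusted p = 0.0072). A block for replicate numbers, which the labels do not tie to a shared culture, gave a call of Krt8 by edgeR in both WT (log2 change -0.30, adjusted p = 0.00856) and 6S-A cells (log2 change -0.45, adjusted p = 0.000278). Krt7 ranged from 1254 to 1541 CPM in GFP-only, from 1308 to 1435 in WT and from 1229.9 to 1377 in 6S-A cells, and all 3 groups overlapped. Its log2 change was -0.03 (95% interval -0.26 to 0.20, adjusted p = 0.924) in WT and -0.12 (-0.35 to 0.12, adjusted p = 0.558) in 6S-A cells, intervals that leave out the falls measured for Krt18 and Krt19. Krt8 and Krt18 have near copies, and how reads that match a gene and its copy were counted is not given in the sources used here. The processed pseudogene Krt8-ps shares 98.6% of 941 bases with Krt8, and Gm5200 shares 90.45% of 1267 bases with Krt18, neither of which was analysed here. Gm17847 shares 86.5% of 1065 bases with Krt18 and held 17775 reads, 2.06% of the reads of Krt18.

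**Figure D2:**
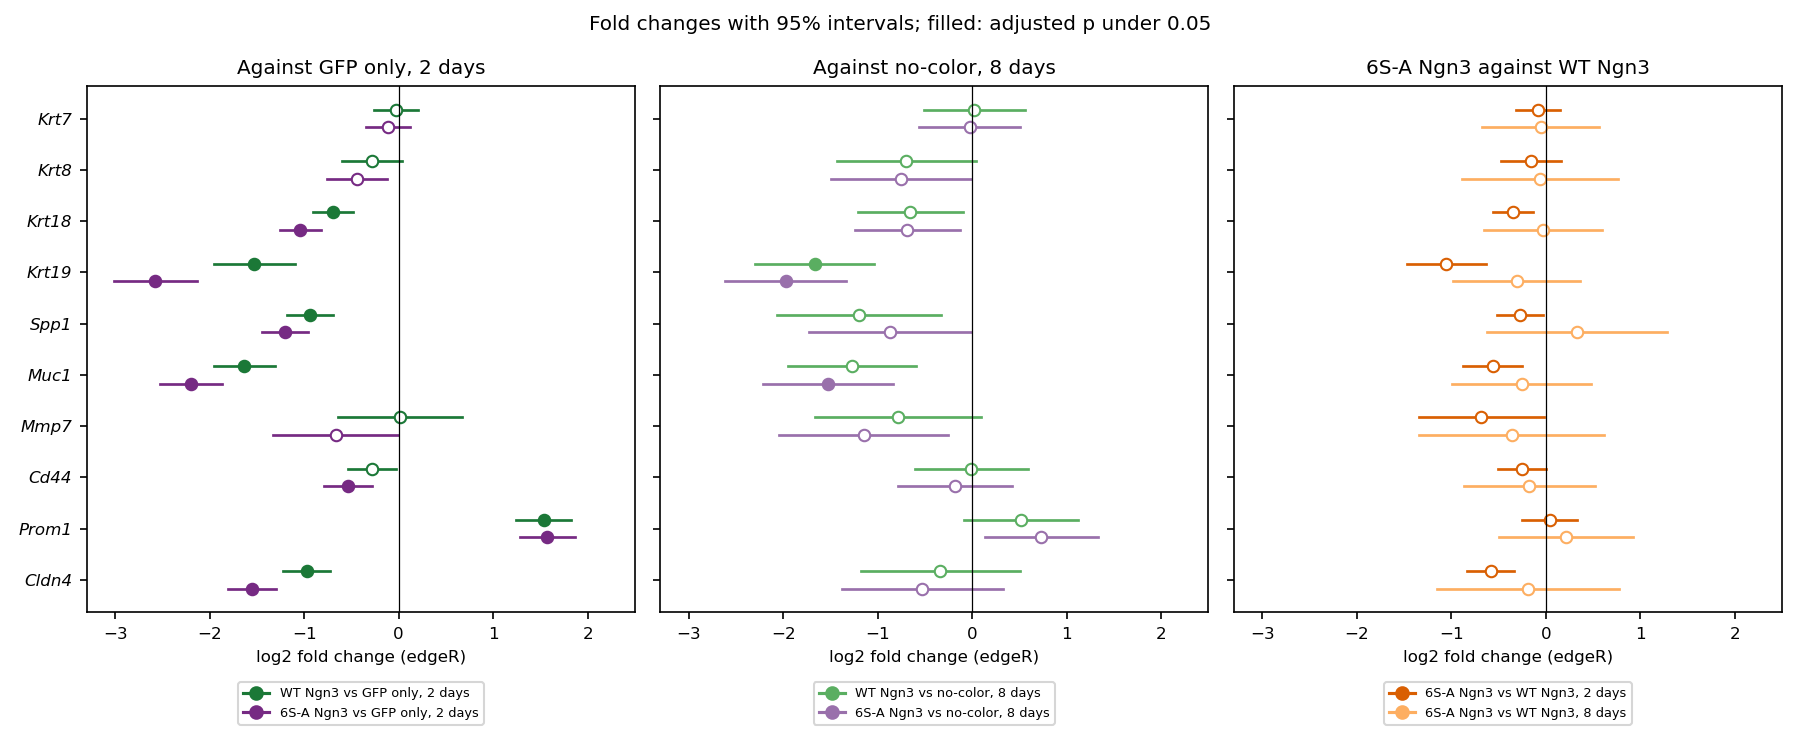
Log2 change of the 10 genes (horizontal axis) in WT and 6S-A Ngn3 cells against GFP only at 2 days, against no-color controls at 8 days, and in 6S-A against WT Ngn3 cells at both times. Points are edgeR estimates, filled where the adjusted p is under 0.05, and lines are 95% intervals. At 2 days Krt19 and Muc1 lie farthest to the left, at -2.58 and -2.19 in 6S-A cells. Prom1 is the only gene with filled points to the right, at 1.53 and 1.57. At 8 days the intervals are wider.

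Of the apical and junctional genes, Muc1 and Cldn4 fell with both proteins. Muc1 was at 849.7, 627 and 586 CPM in GFP-only, 231, 215 and 219 in WT and 152, 170.4 and 128 in 6S-A replicates. Cldn4 was at 2033, 1793 and 2017 CPM in GFP-only, 1031, 1067 and 878 in WT and 620.3, 735 and 635 in 6S-A replicates. For both genes all replicates of GFP-only cells were above all replicates of WT cells, and these were above all replicates of 6S-A cells. Muc1 fell to 0.32 times in WT (log2 change -1.63, SE 0.15, adjusted p = 7.98e-06) and 0.22 times in 6S-A cells (log2 change -2.19, SE 0.15, adjusted p = 3.96e-07). Cldn4 fell to 0.51 times (log2 change -0.97, SE 0.12, adjusted p = 7.86e-05) and 0.34 times (log2 change -1.55, SE 0.12, adjusted p = 8.92e-07).

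Prom1 was the exception. GFP-only replicates held 478, 678 and 595 CPM, WT replicates 1733, 1686 and 1649.5, and 6S-A replicates 1938, 1509 and 1768. Every Ngn3 replicate was above every GFP-only replicate, and WT and 6S-A replicates overlapped. Prom1 rose 2.89-fold in WT (log2 change 1.53, SE 0.14, adjusted p = 7.08e-06) and 2.98-fold in 6S-A cells (log2 change 1.57, SE 0.14, adjusted p = 2.79e-06). The antisense gene Gm16401 overlaps its exons but held 397 reads in all libraries, 0.0982% of those of Prom1. Cd44, also a receptor of the cell surface, was at 2697, 2439 and 3040.3 CPM in GFP-only, 2144, 2509 and 2062 in WT and 1728, 1955 and 1949 in 6S-A replicates. WT replicate 2 lay above GFP-only replicate 2, while all 6S-A replicates lay below all others. Cd44 fell to 0.69 times in 6S-A cells (log2 change -0.54, SE 0.12, adjusted p = 0.00545), and its log2 change of -0.28 (SE 0.12, adjusted p = 0.161) in WT cells did not pass.

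The secreted proteins differed from each other. Spp1 was at 9214, 10406 and 8431 CPM in GFP-only, 5131, 4586 and 4952 in WT and 3943, 4408 and 3831 in 6S-A replicates, with no overlap between any 2 groups. It fell to 0.52 times in WT (log2 change -0.94, SE 0.11, adjusted p = 9.11e-05) and 0.43 times in 6S-A cells (log2 change -1.20, SE 0.11, adjusted p = 6.13e-06). Mmp7 was at 603, 1341 and 686 CPM in GFP-only, 889, 1031 and 737 in WT and 549, 691 and 415 in 6S-A replicates. GFP-only replicate 2 was far above the other 2 of its group, and GFP-only cells overlapped both Ngn3 groups. The log2 change of Mmp7 was 0.01 (95% interval -0.64 to 0.67, adjusted p = 0.987) in WT and -0.67 (-1.33 to -0.01, adjusted p = 0.168) in 6S-A cells, where edgeR called it with the block only (log2 change -0.62, adjusted p = 0.0232). The calls of Krt18, Spp1 and Cldn4 in WT and of Cd44 in 6S-A cells were lost when libraries were scaled by their ERCC spike-ins, where the log2 changes were larger (-0.88, -1.12, -1.15 and -0.71) but had SEs of 0.39 to 0.41, and those of Spp1 and Cd44 in 6S-A cells when the first pool of each replicate was used alone.

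The study asked whether the phosphomutant acts differently from the wild-type protein. Comparing 6S-A with WT Ngn3 at 2 days, 7 of the 10 genes were lower in all 3 replicates of 6S-A than in any replicate of WT cells: Krt18, Krt19, Spp1, Muc1, Mmp7, Cd44 and Cldn4. Of all genes tested, 5.57% (1329 of 23844) were separated in this direction. None of the 10 passed edgeR's test in this comparison, which called 0.0126% of all genes, 3 of 23844, with 1380 at an unadjusted p under 0.05. With the replicate number as a block in edgeR's test, Cldn4 (adjusted p = 0.0116), Krt19 (adjusted p = 0.013), Krt18 (adjusted p = 0.0322) and Muc1 (adjusted p = 0.0347) passed, all lower in 6S-A cells, among 147 genes in all. Without the block, the sizes were -1.05 on the log2 scale for Krt19 (SE 0.20, 95% interval -1.47 to -0.63, adjusted p = 0.194), -0.58 for Cldn4 (SE 0.12, -0.83 to -0.33, adjusted p = 0.204) and -0.56 for Muc1 (SE 0.15, -0.88 to -0.25, adjusted p = 0.439). Krt18 differed by -0.34 (-0.56 to -0.13, adjusted p = 0.506), and Prom1 by 0.04 (-0.25 to 0.33, adjusted p = 1). The intervals of single genes thus left out 0 for several of the 10 while the adjustment over all genes did not pass any. DESeq2 on the same counts called 2 of the 10, Krt19 (adjusted p = 0.00121) and Cldn4 (adjusted p = 0.00246), and 97 genes in all. Without a filter on low counts edgeR called Cldn4 (adjusted p = 0.0061), Muc1 (adjusted p = 0.018) and Krt19 (adjusted p = 0.036), among 100 genes. The differences depended on which pools were used. With the first pool of each replicate alone they were -0.35 for Krt19, -0.048 for Krt18, -0.057 for Cd44 and -0.044 for Mmp7, that of Spp1 turned to 0.34, and those of Cldn4 and Muc1 were -0.48 and -0.76, none of which passed.

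At 8 days Krt19 fell with both proteins and Muc1 with 6S-A Ngn3, and the spread between replicates was larger. The references were the 6 replicates of both no-color controls. Krt19 was at 1071, 998 and 652 CPM in the no-color control of WT organoids, 980.5, 579.6 and 919.9 in that of 6S-A organoids, 226, 363 and 229.9 in WT and 217, 237 and 207 in 6S-A cells. Muc1 was at 1148, 551 and 542 CPM in the no-color control of WT, 967, 535 and 744 in that of 6S-A, 304, 324 and 299 in WT and 265, 318 and 195 in 6S-A cells. Krt18 was at 5515, 3310.1 and 3065 CPM, 4609, 3548 and 3864, 2783, 2218 and 2581, and 2514, 2589.6 and 2318 in the same order. For these 3 genes every WT and every 6S-A replicate was below all 6 no-color replicates, as for 1.04% of all genes tested (204 of 19696).

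Krt19 fell in WT cells to 0.32 times the no-color level by edgeR (log2 change -1.67, SE 0.30, adjusted p = 0.0100), the only 1 of the 10 genes called where 0.914% of all genes were (0.741% higher and 0.173% lower). In 6S-A cells Krt19 (log2 change -1.98, SE 0.31, adjusted p = 0.00229) and Muc1 (log2 change -1.53, SE 0.32, adjusted p = 0.0198) fell, 2 of the 10 where 1.71% of all genes were called (1.37% higher and 0.34% lower). Muc1 in WT cells had a log2 change of -1.27 (SE 0.32, adjusted p = 0.0773) and was called with the block (adjusted p = 0.0221), by DESeq2 (adjusted p = 0.00328) and without a filter (adjusted p = 0.0213). Krt18 had one of -0.66 (adjusted p = 0.365) in WT and -0.69 (adjusted p = 0.262) in 6S-A cells, where DESeq2 called it (adjusted p = 0.0416). The call of Krt19 in WT cells was lost without WT replicate 1 (adjusted p = 0.140) or replicate 3 (adjusted p = 0.0618), and that of Muc1 in 6S-A cells without 6S-A replicate 1 (adjusted p = 0.0728), 6S-A replicate 3 (adjusted p = 0.0965) or replicate 1 of the no-color control of 6S-A (adjusted p = 0.0512). Without the passage 5 replicates the calls of Krt19 in WT (adjusted p = 0.0587) and of Muc1 in 6S-A cells (adjusted p = 0.129) were lost, and that of Muc1 also against the no-color control of 6S-A alone (adjusted p = 0.0665). Krt19 in 6S-A cells kept its call without any single replicate and in these fits. With spike-in scaling none of the 10 passed at 8 days. The log2 changes were then -1.86 (WT) and -2.03 (6S-A) for Krt19 and -1.49 (6S-A) for Muc1, with SEs of 0.71 to 0.72.

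Spp1 varied widely within the 8-day groups. Its no-color replicates held 25021, 17326 and 8147 CPM for WT and 20407, 27054 and 21027 for 6S-A organoids, and the Ngn3 replicates 10165, 6797 and 8701 for WT and 10416, 17639 and 4206 for 6S-A. The lowest no-color value was from the shallow passage 5 replicate, and 6S-A replicate 3, also passage 5, was the lowest of all 12. The log2 change of Spp1 was -1.20 (SE 0.41, adjusted p = 0.257) in WT and -0.87 (SE 0.41, adjusted p = 0.408) in 6S-A cells. Prom1 was at 809, 1003 and 849.7 CPM and 1517, 999 and 881 in the no-color controls of WT and 6S-A, 1163, 1614 and 1523 in WT and 2071, 1955 and 959 in 6S-A cells. WT cells were above the no-color cells of the same organoids in all replicates, but WT replicate 1 lay below replicate 1 of the 6S-A no-color control. Its log2 change was 0.52 (95% interval -0.09 to 1.12, adjusted p = 0.560) in WT and 0.73 (0.13 to 1.33, adjusted p = 0.272) in 6S-A cells. Krt8, Mmp7 and Cldn4 had log2 changes of -0.34 to -1.15, and Krt7 and Cd44 of -0.18 to 0.02, none of which passed edgeR's test, although Mmp7 was called in 6S-A cells without a filter on low counts (adjusted p = 0.0416).

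At 8 days none of the 19696 genes tested, 0%, differed between 6S-A and WT Ngn3 by edgeR, with 415 at an unadjusted p under 0.05. DESeq2 also called 0, and edgeR without a filter on low counts 8. Krt19 differed by -0.31 on the log2 scale (95% interval -0.98 to 0.37). The 6S-A to WT difference of Krt19 was 0.74 higher at 8 than at 2 days (-0.06 to 1.55, adjusted p = 1), in a comparison that called 0% of all genes, with 445 at an unadjusted p under 0.05 and 4 genes called by DESeq2 and 26 by edgeR without a filter. Nor did any gene, 0%, differ between the no-color controls by edgeR (1649 at an unadjusted p under 0.05, 8 by DESeq2 and 352 by edgeR without a filter), where the 10 genes had log2 differences from -0.37 to 0.51.

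Against their own level at 2 days, none of the 10 genes passed in WT cells at 8 days (0.168% of all genes were called) or in 6S-A cells (0.562%). The largest values in 6S-A cells were 1.56 for Spp1 (SE 0.38, adjusted p = 0.0644), 1.12 for Krt19 (SE 0.28, adjusted p = 0.0666), 0.95 for Muc1 (SE 0.29, adjusted p = 0.147) and 0.81 for Krt18 (SE 0.22, adjusted p = 0.101), and DESeq2 called all 4 of these, among 692 genes in all against 110 by edgeR. With the block, edgeR's fit compares the levels at replicate 1 of each time point and not the group means. Its calls of Krt18 (adjusted p = 0.0118), Krt19 (adjusted p = 0.0125) and Spp1 (adjusted p = 0.0339) are therefore no test of the group means. Spp1 had the largest value in WT cells as well, 0.97 (SE 0.38, adjusted p = 0.457). Without a filter on low counts edgeR called Spp1 in WT cells (adjusted p = 0.0276), among 370 genes in all. In 6S-A cells that fit called Spp1 (adjusted p = 1.73e-06) and Krt19 (adjusted p = 0.0165), among 630. Without passage 5 edgeR called Spp1 in 6S-A cells (adjusted p = 0.00212), among 230. The controls also differed over time, although they are different populations: no-color cells at 8 days held 1.93 times as much Prom1 as GFP-only cells at 2 days (log2 change 0.95, SE 0.24, adjusted p = 0.0481), 1 of the 10 where 1.35% of all genes were called (0.403% higher and 0.95% lower). That call was lost in 6 of the 9 fits that left out a single replicate, with adjusted p up to 0.309 without GFP-only replicate 1. Mmp7 and Spp1 had larger log2 changes, 1.27 and 1.24, that did not pass edgeR's test (adjusted p = 0.120 and 0.0818). DESeq2 called both (adjusted p = 0.027 and 0.00719), among 1084 genes in all.

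The balance among the keratins shifted with these changes. Per kilobase, Krt19 made up 13.9 ± 0.869% of Krt18 and Krt19 together in GFP-only cells (SD, n = 3), 8.27 ± 1.87% in WT and 5.23 ± 0.758% in 6S-A cells at 2 days. At 8 days the share was 15.4 ± 3.12% and 13.7 ± 2.21% in the no-color controls of WT and 6S-A, 7.87 ± 2.94% in WT and 6.45 ± 0.184% in 6S-A cells. At each time point the highest Ngn3 replicate was below the lowest control replicate, except that WT replicate 2 at 8 days was level with the lowest no-color replicate, both at 11.2%. Krt8, the basic partner, stood at 0.298 ± 0.0196 of the sum of Krt18 and Krt19 in GFP-only cells and at 0.423 ± 0.0740 in WT and 0.498 ± 0.0609 in 6S-A cells at 2 days. In the 8-day groups the mean ratio was 0.224 to 0.261. Krt7 was left out of these ratios because its annotated exons, 7049 bases, are several times as long as those of the other keratins. No test was made of the ratios, which come from the counts tested above.

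**Figure D3:**
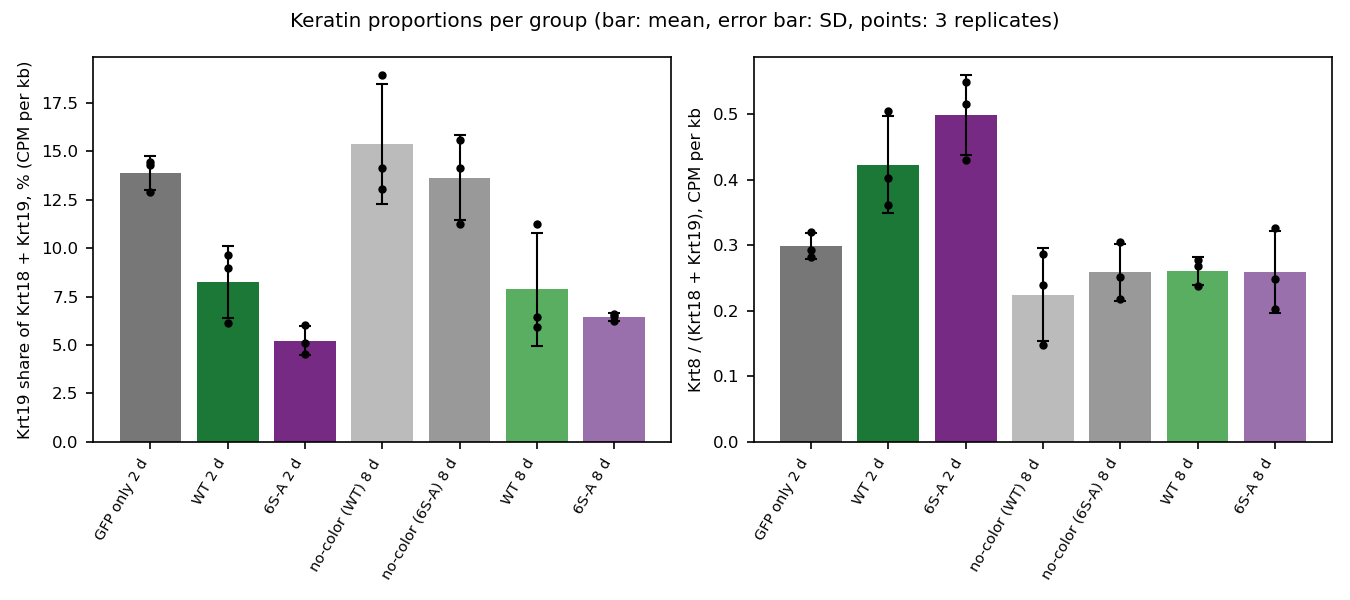
Krt19 as a percentage of Krt18 plus Krt19 and the ratio of Krt8 to their sum, per kilobase of exon (vertical axes), in the 7 groups. Points are biological replicates, and bars and error bars are means and SD. The Krt19 share is 12.9% to 18.9% in GFP-only and no-color replicates of WT, 11.2% to 15.6% in no-color replicates of 6S-A and 4.53% to 11.2% in Ngn3 replicates, and the Krt8 ratio is highest in Ngn3 cells at 2 days.

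Single pools, each a sum over 50 cells, were also compared at 2 days. Over both time points, pools of the same replicate formed 148 pairs, and in 6 of them the chi-square statistic divided by the number of genes was only 1.61 to 2.44, while it was at least 5.41 in the others. The 6 were technical repeats 2 and 3 of biological replicates 2 and 3 in all 3 groups at 2 days, and each such pair was counted as 1 pool, which left 16 per group. No pool had 0 reads for any of the 10 genes. Krt19 ranged from 457 through a median of 648 to 900.4 CPM in GFP-only pools, from 97.3 through 219 to 467 in WT and from 33.3 through 117 to 251 in 6S-A pools. Only 1 WT pool reached the lowest GFP-only value. The coefficient of variation of Krt19 was 16.9% in GFP-only, 41.7% in WT and 44.2% in 6S-A pools. For Prom1 it was highest in GFP-only pools, with 24.8% (349.9 to 849 CPM, median 560.3), against 8.68% in WT pools (1383 to 1974, median 1714) and 16.7% in 6S-A pools (1218 to 2261, median 1831). These coefficients cover pools of all 3 biological replicates. Krt18 went from 2679 through 3282 to 3829 CPM in GFP-only pools, from 1519 through 1993 to 2548 in WT and from 1158 through 1523 to 2149.9 in 6S-A pools, so WT and 6S-A pools overlapped while neither reached GFP-only pools. Mmp7 was uneven in all groups, with a coefficient of variation of 49.0%, 29.2% and 50.0%.

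**Figure D4:**
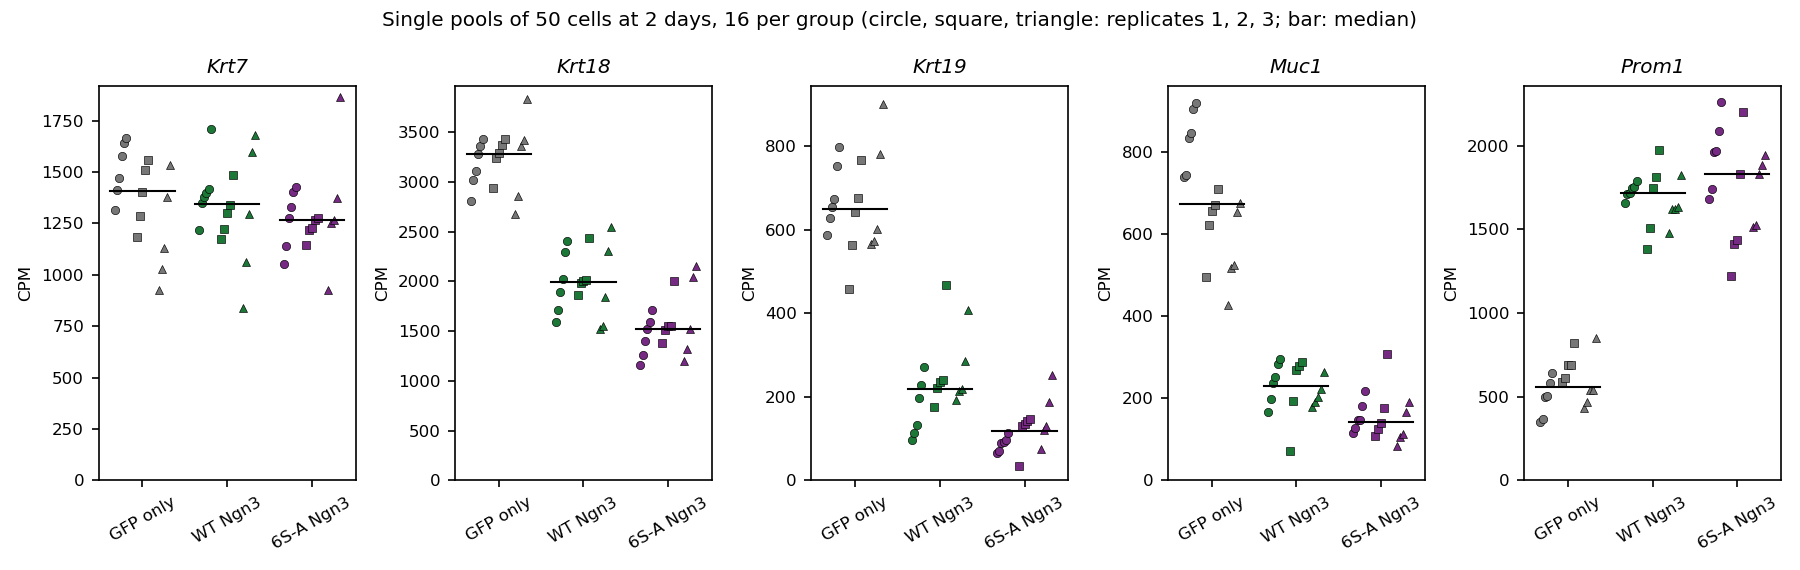
Level in CPM (vertical axis, from 0) of Krt7, Krt18, Krt19, Muc1 and Prom1 in single pools of 50 cells at 2 days, 16 per group. Circles, squares and triangles are pools of biological replicates 1, 2 and 3, and bars are medians. Krt18, Muc1 and Prom1 pools of Ngn3 cells lie apart from GFP-only pools, Krt19 pools touch at 1 WT pool, and Krt7 pools overlap throughout.

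Pools of a replicate also varied together. Each pool's log2 CPM was first set against the mean of its replicate. In a second step it was set against the mean of the pools of all groups with the same replicate and repeat number. That step treats same-numbered replicates as matched, which the labels do not say. Spp1 and Mmp7 then had a Pearson's r of 0.71 over 48 pools, the highest among the 10 genes, and 0.70 to 0.73 within each group before the second step. Cd44 and Krt18 followed with 0.60, Prom1 and Mmp7 with 0.51, Cldn4 and Krt18 with 0.49, Krt19 and Mmp7 with 0.47, Spp1 and Prom1 with 0.46 and the filament partners Krt8 and Krt18 with 0.45. Krt7 and Krt8 had 0.76 before the second step and 0.32 after it, since pools of the same replicate and repeat number deviated alike in all groups. Neurog3 had 0 reads in 12 of the 16 GFP-only pools. Within WT and within 6S-A pools, before the second step, its r was -0.22 and -0.44 with Krt19, -0.53 and -0.02 with Cldn4, -0.21 and -0.42 with Spp1 and 0.04 and 0.32 with Prom1. These pools share replicates, depth and total RNA, and the values are a description.

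**Figure D5:**
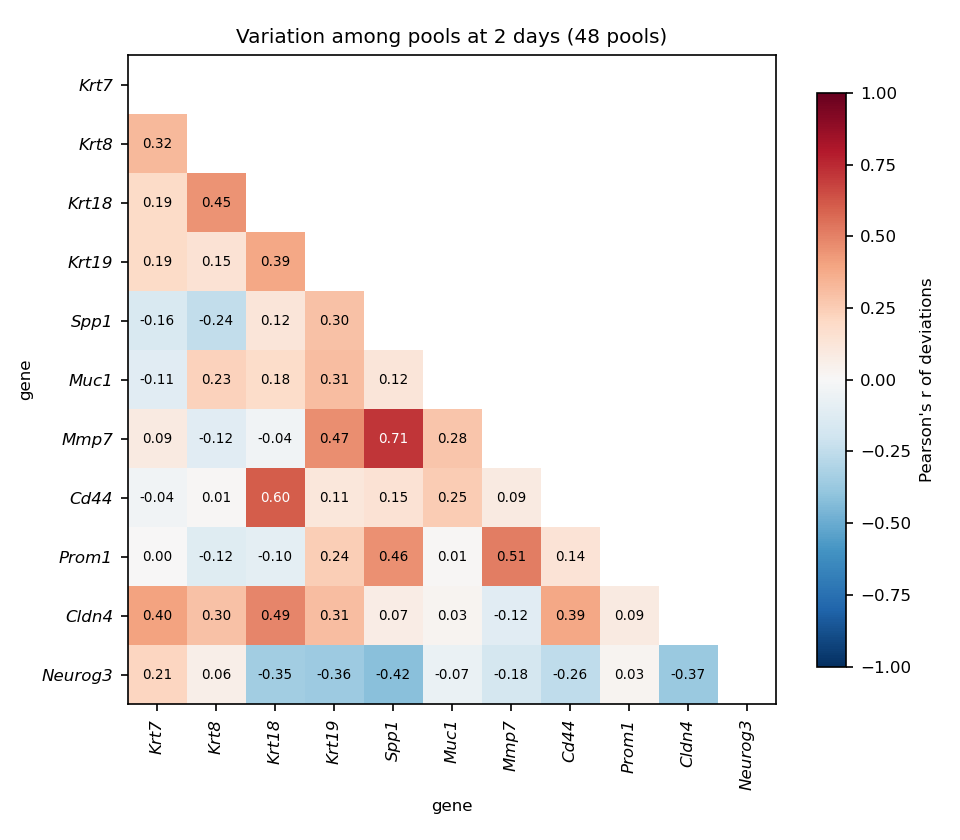
Pearson's r between the deviations of log2 CPM of each pair of genes over 48 pools at 2 days. Values were centred by replicate, then over the pools of all groups that share a replicate and repeat number. Color and number give r from -1 to 1. Spp1 with Mmp7 is highest at 0.71 and Neurog3 with Spp1 lowest at -0.42, in a row that includes 12 pools with 0 Neurog3 reads.

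Across the 21 biological replicates, centred within each time point, the genes whose log2 CPM was most like that of Krt19 were Kcnn4 (Pearson's r 0.955), a calcium-activated potassium channel gene, Gabrp (0.954) and Muc1 (0.934), of 8275 genes searched. Muc1 was closest to Tinagl1 (0.958), Krt18 (0.956) and Tagln2 (0.945). Krt18 was closest to its own pseudogene Gm17847 (0.982), with which it may share reads, then to Tagln2 (0.966) and Tinagl1 (0.961). Prom1 was close to Plekhg1 (0.934) and Dop1b (0.920), and had -0.76 with Muc1. Cldn4 was closest to Frrs1 (0.931), Spp1 to 0610040J01Rik (0.926) and Krt8 to Fos (0.900). Cd44 was closest to Hmgcs1 (0.855), Krt7 to Yipf2 (0.820) and Mmp7 to Gm3571 (0.818). These coefficients run over groups that differ in level, so they describe shared differences between groups as well as variation within them.

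Other genes of the duct epithelium were counted in lists. Of 20 other surface and junction genes, 7 fell and 1 rose in WT cells at 2 days, and 11 fell and 1 rose in 6S-A cells, with median log2 changes of -0.38 and -0.61. Of all genes, 5.23% fell and 6.56% rose in WT and 8.62% fell and 9.43% rose in 6S-A cells, with medians of 0.01 and 0.02. The same gene, the tetraspanin Tspan8, was the 1 that rose (0.70 and 0.74). Anxa2, an annexin of the plasma membrane, was at 1331, 1426 and 1328 CPM in GFP-only, 569, 551 and 574 in WT and 279, 441 and 426 in 6S-A replicates, and fell by 1.83 on the log2 scale in 6S-A cells (SE 0.15, adjusted p = 1.69e-06). The mucin gene Muc4 fell by 3.92 in 6S-A cells (SE 0.82, adjusted p = 0.00573), from no more than 10.4 CPM. Cldn3 and Cldn7, claudins like Cldn4, fell with both proteins, by 0.72 and 0.84 in WT and by 1.15 and 1.33 in 6S-A cells. Cdh1, encoding E-cadherin, had log2 changes of 0.58 and 0.57 that did not pass (adjusted p = 0.0789 and 0.0603). At 8 days Cldn7 fell in 6S-A cells (-1.25, adjusted p = 0.0288).

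Desmosomal and linker genes, whose proteins anchor keratin filaments, went in both directions. Of 11, 3 rose (Dsp, Jup and Dsc2) and 3 fell (Ppl, Pkp2 and Pkp3) in WT cells, and 2 rose and 6 fell in 6S-A cells, with median log2 changes of -0.36 and -0.73, where 11.8% and 18.1% of all genes were called in either direction. Dsp, encoding desmoplakin, which ties keratins to the desmosome, was at 68.5, 92.9 and 122 CPM in GFP-only, 223, 241 and 222 in WT and 219, 225 and 294 in 6S-A replicates. Every Ngn3 replicate was above every GFP-only replicate, and Dsp rose by 1.28 in WT and 1.38 (SE 0.18, adjusted p = 0.000109) in 6S-A cells. Jup, encoding plakoglobin, rose by 0.87 and 1.07, while the plakin genes Ppl (-1.26, adjusted p = 0.00176) and Evpl (-1.76, adjusted p = 0.00528) fell in 6S-A cells. None of the 11 passed at 8 days, where 0.914% of all genes were called in WT and 1.71% in 6S-A cells, so a count of 0 is near the share of all genes.

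A further list held 12 genes, most of them for secreted proteins of ducts. At 2 days 6 fell and 1 rose in WT cells, and 7 fell in 6S-A cells. The 1 that rose, Mmp14, encodes a membrane-bound protease. Median log2 changes were -0.77 and -1.05, where 5.23% and 8.62% of all genes fell. Lcn2, encoding lipocalin 2, was at 6582, 8379 and 5988 CPM in GFP-only, 946, 1888 and 1913 in WT and 673, 1749 and 1072 in 6S-A replicates, and fell by 2.58 in 6S-A cells (SE 0.39, adjusted p = 0.00168). Lgals3 fell by 2.81 (adjusted p = 0.000484) and Slpi by 1.97 (adjusted p = 0.00207). At 8 days Slpi and Lcn2 fell in WT cells (-2.30 and -1.99), and 5 of the 12 fell in 6S-A cells: Slpi (-3.35, adjusted p = 0.00441), Lcn2 (-2.59, adjusted p = 0.00328), Wfdc2 (-2.33, adjusted p = 0.0454), Lgals3 (-1.64) and Clu (-1.34). Of all genes, 0.173% fell in WT and 0.34% in 6S-A cells at 8 days. Of 11 other keratins, 9 were tested. In 6S-A cells at 2 days Krt23 fell from 32.9 to 56.6 CPM in GFP-only replicates to 0.294 to 7.68 (log2 change -3.52, adjusted p = 0.0410), and Krt222 rose by 3.02 (adjusted p = 0.0411) from 1 or 2 reads in each GFP-only replicate. These 2 of 9 are near the 18.1% of all genes called in that comparison. No other keratin of the list passed in either comparison with GFP only or at 8 days against no-color cells.

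Markers of other cell types were checked beside these results. The 8 endocrine genes include Neurog3, which the vector itself supplies. Their summed level was 0.650 to 1.95 CPM in GFP-only cells and 0.597 to 6.95 in no-color cells. At 2 days, beside the fall of the duct genes, it was 279.96 to 1052 in WT and 559 to 1111 in 6S-A cells, where 7 and 8 of the 8 rose. At 8 days it was 30.3 to 1776 in WT and 122 to 2119 in 6S-A cells. The sum of 9 acinar genes was 19.9 CPM or less, with Cpa1, Ptf1a, Amy2a2 and Pnlip at 0 in all replicates, and that of 8 stromal genes 4.98 or less, with Col3a1 at 0. Those of 8 leukocyte genes, with Cd3e and Tyrobp at 0, and of 6 endothelial genes were 21.6 and 14.4 or less. The part of endocrine cells within a pool in the levels of the 10 genes was not tested.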

How the data were processed

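The whole-number counts per gene were deposited by the authors, who aligned single-end reads to mm10 with GSNAP and counted them on Ensembl genes with HTSeq 0.5.3p3, per the labels and the study's methods. The strand setting is not given in the sources used here, so reads of overlapping antisense genes cannot be told apart. Exons of Spp1 overlap Gm42793 on the same strand over 18.75% of their bases. Those of Mmp7 overlap the antisense gene AV064505 over 11.5%, and those of Prom1 overlap Gm16401 over 5.91%. Reads of Gm42793 and AV064505 are not given here. Lines without a gene (14.4% no feature, 8.06% ambiguous, 22.5% not aligned) were left out. Of 77 libraries, 76 passed the limits (spike-ins under 30%, over 1000000 reads, over 10000 genes); pools of a replicate were summed. Genes with reads in 5 or more libraries at a time point entered edgeR 4.0.16 (robust quasi-likelihood, TMM, Benjamini-Hochberg over all genes; R 4.3.3). Alternatives included DESeq2 1.42.0, size factors from scran 1.30.0, other filters, fewer libraries, spike-in scaling (chosen after seeing the data) and a replicate block. Named genes were the 10 genes, at most 3 per list and time point with the largest change past the threshold, and the 3 most similar genes, of which some are not reported here. Other genes of the lists (Jup, Dsc2, Pkp2, Pkp3, Tspan8, Cldn3, Cldn7 and Cdh1, Mmp14 at 2 days, Lgals3 and Clu at 8 days) were named after their values were seen. The 10 genes and all lists were chosen with earlier results of these data known. On simulated data the same fit returned the size of known changes, but at 8 days left most of the smaller ones uncalled. Sequences are from RefSeq (GRCm38.p6), where 9 of the 10 genes matched, and gene places from GENCODE M21.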

Additional observations from a re-analysis of the deposited data

How the results depend on the processing

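At 2 days all values of called genes kept their direction under the alternatives, and 87 of 90 (WT) and 102 of 105 (6S-A) kept their call. At 8 days 16 of 20 and 33 of 40 did, and 8 of 19 for no-color cells against GFP only. The counts include fits that could not differ from the main fit. These were all 77 libraries at 2 days and leaving out technical repeat 3 at 8 days. The number of the 10 genes called is given next, with that of all genes in brackets. Against GFP only at 2 days it was 6 (2810) in WT cells, 7 (4291) with the replicate block and 3 (1219) with spike-in scaling. In 6S-A cells it was 7 (4305), 5 (1677) with the first repeat alone, 6 (2127) with spike-in scaling, 9 (5912) with the block, and 8 with scran (4330), DESeq2 (5054), no filter (4617) or without technical repeat 3 (4366). The gene gained was Krt8 in WT with the block (adjusted p = 0.00856) and in 6S-A cells in these 4 fits and with the block (adjusted p = 0.000278), which also called Mmp7. Spike-in scaling set the median of all genes at -0.17 (WT), -0.15 (6S-A), -0.28 (no-color against GFP only) and 0.43 (between the no-color controls). For 6S-A against WT at 2 days, DESeq2 called 2 (97), no filter 3 (100) and the replicate block 4 (147), against 0 (3). For WT against no-color, with 1 (180), DESeq2 (545), no filter (724) and the block (472) each called 2, and spike-in scaling (38) or leaving out passage 5 (151) called 0. For 6S-A against no-color, with 2 (337), DESeq2 (822) and no filter (1044) called 3, spike-in scaling (100) 0, and leaving out passage 5 (225) or using its own no-color control (115) 1. For 8 against 2 days, no filter called 1 (370) in WT cells against 0 (33), and in 6S-A cells DESeq2 called 4 (692), no filter 2 (630), the block 3 (879) and leaving out passage 5 called 1 (230), against 0 (110). For no-color against GFP only, with 1 (265), scran (195), all 77 libraries (238), the first repeat alone (10), leaving out technical repeat 3 (249) and spike-in scaling (0) called 0, DESeq2 called 4 (1084), no filter 3 (856), the block 2 (1125) and leaving out passage 5 called 2 (772). In these comparisons over time the block fit compares the levels at replicate 1 of each time point, so its counts are no test of the group means. Leaving out single replicates gave 6 genes in each fit (WT) and 7 to 8 (6S-A) at 2 days, 0 to 1 and 1 to 2 against no-color, 0 to 1 for 6S-A over time and 0 to 2 for no-color against GFP only. The cause of these moves was not tested.

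Signs that turned with a move of more than 1 SE occurred only in values that were not called, and further values near 0 changed sign within 1 SE. With the first repeat alone these were Krt7 in WT against GFP only (0.12), in 6S-A against no-color (0.25) and over time (0.13), Spp1 in 6S-A against WT at 2 days (0.34) and Prom1 in the change of that difference (-0.25). Without passage 5 they were Mmp7 in 6S-A against WT at 8 days (0.35) and in WT over time (-0.072) and Cd44 between the no-color controls (-0.29). With spike-in scaling they were Krt7 (0.26) and Krt19 (0.19) between the no-color controls. With the block they were Krt8 over time (0.40 in WT, 0.45 in 6S-A) and Cldn4 in no-color against GFP only (0.029). Those fits compare the levels at replicate 1 of each time point and not the group means. Leaving out single replicates, Krt8 ranged from -0.29 to 0.014 in 6S-A against WT at 2 days, Mmp7 from -0.88 to 0.13 and Spp1 from -0.23 to 0.74 in the same comparison at 8 days, Mmp7 from -0.64 to 0.16 between the no-color controls and from -0.038 to 0.78 in WT over time, and Krt8 from -0.078 to 0.39 in no-color against GFP only.

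Replicate numbers are shared between groups, but the labels do not say that a number marks 1 culture. Deviations of same-numbered samples had correlations from 0.04 to 0.18 at 2 days and from 0.07 to 0.48 at 8 days over all genes tested, and from 0.20 to 0.61 and from 0.12 to 0.71 over genes with a mean log2 CPM of at least 4, and each of the 9 and 12 samples correlated best with its own number, a hint from the data and not from the design. The choice between these gene sets was made with the blocked calls known, so whether the numbers pair the samples was not settled.

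With 3 replicates, and at 8 days as few as 2397470 reads, small differences could not be detected. Intervals for single genes are not adjusted over the 10.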
